A study of Mus musculus with 17 samples.

Results

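H3.3 regions at divergent coding promoters were examined in Arid1a cKO pachytene spermatocytes. The assay was CUT&RUN, where a nuclease tethered by the antibody cuts around its target on chromatin and the freed fragments are sequenced. The members are those merged peak regions of the autosomes whose centre lay within 1 kb of a transcript start of each of 2 protein-coding genes that point away from each other, with the start of the minus-strand gene at the lower coordinate (mm10, GENCODE M21). The rule used position alone, and 683 regions met it. They made up 11.1% of the 6179 autosomal cKO regions (95% Wilson interval 10.3 to 11.9%) and 12.6% of the 5441 with any coding start within 1 kb, out of 6780 H3.3 regions in both genotypes. By construction, each member had a start of a protein-coding gene on either strand, facing outwards. All transcripts of these genes counted, and with protein-coding transcripts alone 621 regions met the rule.

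The series holds 17 libraries of mouse pachytene spermatocytes, the meiotic cells in which homologous chromosomes are fully synapsed, and 5 of them were made with an H3.3 antibody. The 3 cKO libraries came from males that were Arid1a fl/fl; Stra8-Cre Tg/0, in which Cre under the Stra8 promoter acts in spermatogonia, so that the deletion is restricted to germ cells. The 2 WT libraries came from males that were Arid1a fl/fl or Arid1a fl/+ without the transgene. Both genotypes were on a CD1 background, and cells were pooled from testes of adult males, enriched by Sta-Put sedimentation and cryopreserved. The cKO fraction is not free of escaper cells that kept ARID1A. Each genotype is represented by 1 combined list of peaks, so regions have no value per library, no spread between replicates and no test of genotype, and intervals below cover counting error only. Fold is the H3.3 pileup over that of an IgG control, as the peak caller averaged it over a peak. That control was a rabbit IgG library of another study, from juvenile testes enriched for pachytene cells, whereas the H3.3 antibody was a mouse monoclonal raised against H3F3B.

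Divergent promoters are shared stretches of DNA from which neighbouring genes are transcribed in opposite directions. They are common in mammals, are often CpG islands without a TATA box, and frequently serve housekeeping genes of DNA repair, mitochondria and translation. H3.3 is the histone H3 variant that is deposited outside DNA replication, typically at active starts and at nucleosomes that turn over quickly, and ARID1A is a DNA-binding subunit of the BAF chromatin remodeler.

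The DNA between the starts is printed for 7 pairs, chosen after their values were seen, from those in which no annotated exon overlaps the interval. These are the 4 such members of highest fold among pairs 30 to 300 bp apart, 1 member with its centre between the starts, and 2 long-known divergent pairs of lower fold. All are the plus strand of mm10, from the base after the minus-strand start to the base before the plus-strand start, so the minus-strand gene reads leftwards from the left end and the plus-strand gene rightwards from the right end. Capitals mark the letters of 4 motifs, searched on both strands: CCGGAAG (ETS), CCAAT (NF-Y), GGGCGG (SP and KLF) and CGCANGCGC (NRF1).
Rita1/Ddx54, chr5:120612590-120612738: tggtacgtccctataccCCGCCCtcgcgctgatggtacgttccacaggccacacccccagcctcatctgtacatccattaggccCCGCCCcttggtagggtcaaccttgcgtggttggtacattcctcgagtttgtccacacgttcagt
Prkar1b/Dnaaf5, chr5:139150002-139150222: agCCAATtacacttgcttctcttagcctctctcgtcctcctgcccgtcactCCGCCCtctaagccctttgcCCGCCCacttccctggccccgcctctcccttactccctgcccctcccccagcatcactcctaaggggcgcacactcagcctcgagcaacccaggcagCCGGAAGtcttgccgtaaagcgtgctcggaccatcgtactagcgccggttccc
1700037C18Rik/Cluap1, chr16:3908690-3908800: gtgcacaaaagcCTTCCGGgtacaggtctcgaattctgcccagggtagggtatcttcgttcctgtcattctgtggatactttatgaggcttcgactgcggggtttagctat
Nfya/Oard1, chr17:48409907-48410013: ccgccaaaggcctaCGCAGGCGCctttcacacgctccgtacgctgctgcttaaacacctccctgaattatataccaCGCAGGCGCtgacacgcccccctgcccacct
B3galt6/Sdf4, chr4:155992650-155992871: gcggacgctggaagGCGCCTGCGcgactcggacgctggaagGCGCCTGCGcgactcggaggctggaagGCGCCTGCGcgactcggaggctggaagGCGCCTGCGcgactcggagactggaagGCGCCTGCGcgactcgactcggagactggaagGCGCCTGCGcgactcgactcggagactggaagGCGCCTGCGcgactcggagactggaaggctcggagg
Hadha/Hadhb, chr5:30155163-30155247: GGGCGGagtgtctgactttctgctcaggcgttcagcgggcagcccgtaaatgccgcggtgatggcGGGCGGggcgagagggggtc
Mrps12/Sars2, chr7:28741821-28741991: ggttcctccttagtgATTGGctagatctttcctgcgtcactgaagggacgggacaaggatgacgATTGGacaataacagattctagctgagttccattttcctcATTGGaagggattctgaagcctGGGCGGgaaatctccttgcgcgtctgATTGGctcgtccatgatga

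These intervals differed widely in composition. GC content was 71.6% in B3galt6/Sdf4, whose 222 bp held 7 matches to the NRF1 letters in a tandem repeat, and 49.7% in Mrps12/Sars2, whose 171 bp held 4 matches to the NF-Y letters. The interval beside Nfya, which encodes a subunit of NF-Y itself, held 2 matches to the NRF1 letters and none to CCAAT. Pairs with the same matches differed in fold, as Rita1/Ddx54 (fold 10.3), Hadha/Hadhb (3.99) and Recql4/Lrrc14 (4.46, interval not printed) each had 2 SP and KLF matches and no match to the other motifs searched.

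To describe how strong and how wide the regions at divergent promoters were, fold and width were set beside those of other autosomal regions. The median fold of members was 4.36 (95% interval of the median from order statistics 4.24 to 4.49), with quartiles of 3.68 and 5.32 and a range of 2.85 to 10.3. Regions at a single coding start had a median of 4.01 (3.98 to 4.05, n = 4638), and those without a coding start within 1 kb had 3.29 (3.23 to 3.36, n = 738). The other 120 autosomal regions lay near starts of several coding genes that did not face away from each other, with a median of 4.15 (3.76 to 4.38). A fold of 5 or more was found in 31.5% of members (28.1 to 35.1%), 22.5% of regions at single starts (21.3 to 23.7%) and 6.64% of regions without a coding start. Among the 120 regions near several genes it was 25.8% (18.8 to 34.3%), which overlaps the interval of members. Members were therefore shifted upwards against regions at single starts and without a coding start. The highest folds of the list were not theirs, since regions at single starts reached 14.9.

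Width and significance moved in the same direction. Members had a median width of 494 bp (473 to 522), from 112 to 2213 bp, against 432 bp (424 to 440) at single starts and 295 bp (283 to 309) without a coding start. Their median -log10 q, the peak caller's adjusted significance against IgG, was 4.43 (4.13 to 4.66) against 3.78 (3.70 to 3.86) at single starts. Regions whose centre lay upstream of a single start were nearer to members in width, at a median of 456 bp, but not in fold, at 3.95. At the low end, a fold of 2.906 (2.90612 as deposited) was the commonest value in the list, and 27 members carried that same value (3.95%), compared with 7.44% of regions at single starts and 18.2% of those without a coding start. The intervals of members lay apart from those of single starts in fold, width and -log10 q, but overlapped that of regions upstream of single starts (437 to 475 bp) in width. They overlapped those of the 120 regions near several genes in all 3 measures, with 395 to 492 bp in width and 3.22 to 4.40 in -log10 q. Regions of 1 list are not replicates, and the differences were not tested.

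**Figure D1:**
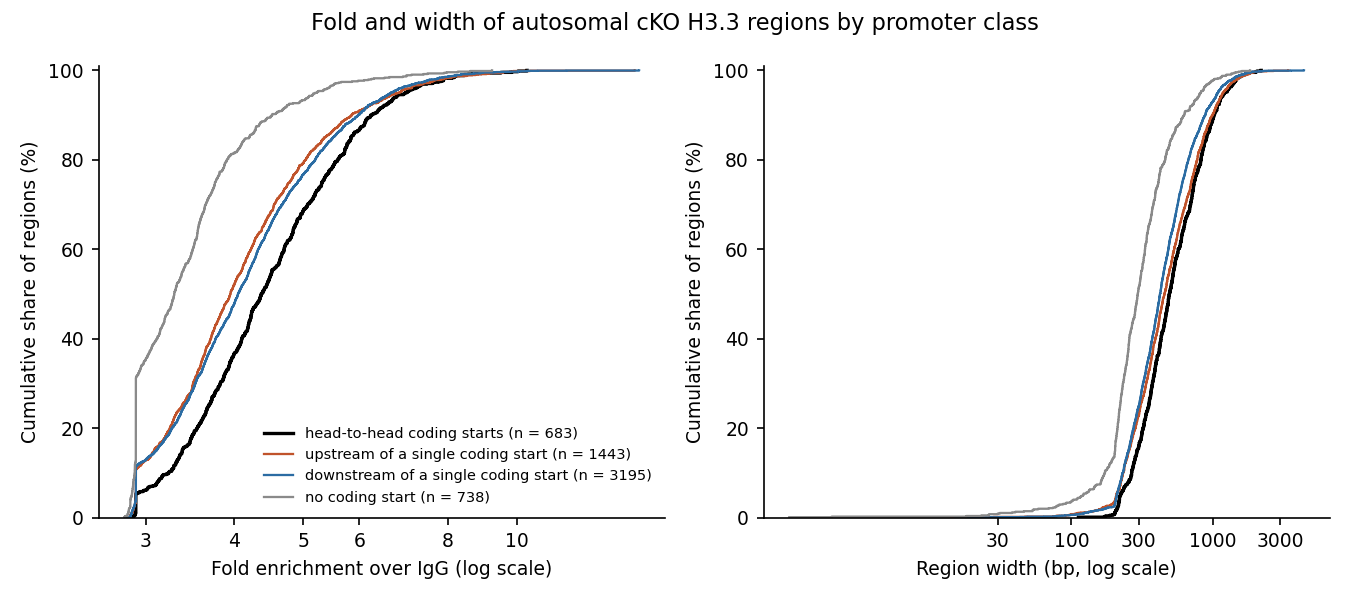
Cumulative share of autosomal cKO regions against fold over IgG (left) and width in bp (right), both on log axes, for 683 regions at head-to-head coding starts, 1443 upstream and 3195 downstream of a single coding start, and 738 without a coding start. The curve of regions at head-to-head starts lies furthest to the right over most of both panels, with a median fold of 4.36 and a median width of 494 bp.

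The combined list usually wrote each member more than once, as an intersection of replicate peaks can do. There were 668 members (97.8%, 96.4 to 98.7%) made of 2 rows and 15 of a single row, compared with 88.7% of 2 rows at single starts and 57.9% where no coding start was near. The 120 regions near several coding genes that did not face away from each other had a like share, 97.5% (92.9 to 99.1%). In all 668, both rows carried the same peak name. The rows were identical in position in 339 of the 668, and their centres differed by 25 bp or less in the lower 3 quartiles and by at most 304 bp. The list does not say which libraries a row came from, so this is no measure of replicate spread.

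To ask where H3.3 sat relative to the starts, each centre was placed on the axis that runs from the minus-strand gene to the plus-strand gene, using the closest pair of starts that met the rule. The starts used were a median of 103 bp apart, from 1 to 1220 bp. The centre lay between them in 141 members, or 20.6% (17.8 to 23.8%), inside the minus-strand gene in 253 (37.0%) and inside the plus-strand gene in 289 (42.3%). Centres were near the shared interval all the same, with a median distance of 183 bp from its midpoint, and 513 members (75.1%) lay within 300 bp of it. Of all the centre positions that the rule allows at these pairs, 9.65% on average lie between the starts. Members thus lay between the starts 2.14 times as often as centres spread evenly over the allowed positions would. Yet most centres were on the transcribed side. Centres at single coding starts also lay close to the start, with medians of 119 bp downstream and 79 bp upstream. An even spread is therefore a loose baseline, and an excess over it says little about the shared interval itself.

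This share depends on which starts are taken. Many of these genes have alternative starts, and with the outermost qualifying pair, whose median distance was 413 bp, 57.5% of centres lay between the starts. With 1 annotated principal isoform set (APPRIS) it was 28.3% of 513 members. In 262 members (38.4%) the minus-strand gene also had a start beyond some start of the plus-strand gene, so that the transcripts overlap and "between" has no single meaning. Centres lay between the closest starts in 13.4% of those (9.76 to 18.01%) and in 25.2% of the 421 members without such crossed starts (21.3 to 29.5%).

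Where a centre lay outside the interval, it was most often just inside a gene. Of 542 such centres, 339 (62.5%) lay more than 50 and up to 250 bp past the start, and the 50-bp bin with the most centres was 100 to 150 bp, with 108. The median was 154 bp (139 to 165). At single coding starts 31.1% of 4638 centres lay upstream, and those downstream lay a median of 119 bp past the start (114 to 124, n = 3165 without centres on the start itself). These distances were taken to the nearest start of the gene, whereas those of members were taken to the closest pair of starts, so the medians are not measured alike. The side that held the centre had the higher GC content in its first 300 bp in 429 of 540 members with a difference (79.4%, 75.8 to 82.6%) and the higher CpG observed over expected ratio in 378 of 542 (69.7%, 65.7 to 73.5%).

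Distance between the starts sorted the members further. The share of centres between the starts was 9.82% at pairs up to 100 bp apart (336 members), 23.0% up to 200 bp (191), 35.6% up to 300 bp (73), 36.2% up to 500 bp (47) and 54.5% up to 1000 bp (33). An even spread over the positions allowed by the rule, the same loose baseline, would give 2.73%, 7.60%, 14.3%, 23.9% and 53.3%. The observed share was above these in each bin, but in the last the interval (38.0 to 70.2%) held the baseline. In the bin up to 500 bp the lower limit, 23.97%, lay barely above the baseline of 23.89%. Outside centres stayed at a similar distance past their start, with medians of 155, 150, 157, 155 and 128 bp in the same order. Fold hardly varied, with medians between 4.20 and 4.48 across these bins. The 3 members at pairs more than 1000 bp apart all had their centre between the starts, as the rule forces there.

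**Figure D2:**
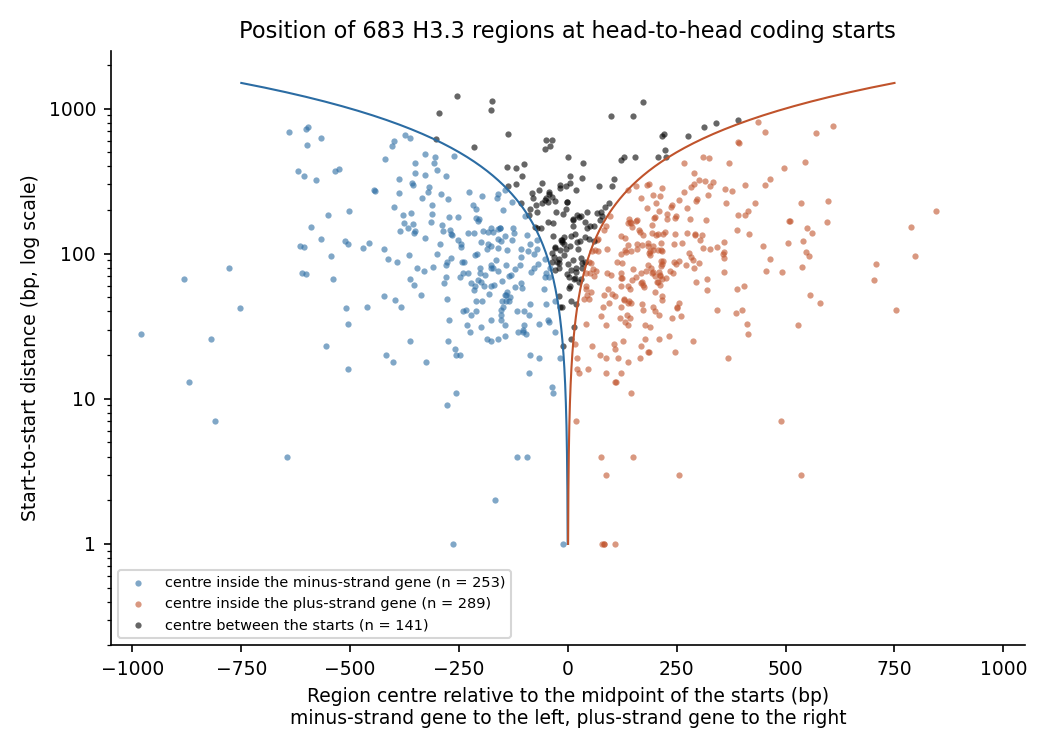
Centre of each of 683 regions relative to the midpoint of the starts used (bp, minus-strand gene left, plus-strand gene right) against the distance between those starts (bp, log axis). The blue and red lines mark the minus-strand and the plus-strand start, and 141 centres (black) fall between them, while 253 (blue) and 289 (red) fall inside a gene, mostly within 250 bp of its start.

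Most members nevertheless reached across the shared interval. Both starts were covered by 350 regions (51.2%, 47.5 to 55.0%), 1 start by 174 (25.5%) and neither by 159 (23.3%). Of these 159, 153 had their centre inside 1 of the genes and 6 lay wholly between the starts. Coverage followed width, with both starts covered in 18.7% of the 171 narrowest (112 to 352 bp) and in 85.4% of the 171 widest (741 to 2213 bp). Of the 10 members of highest fold, 5 covered both starts and 2, at Rita1/Ddx54 and 1700037C18Rik/Cluap1, covered neither.

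The 10 members of highest fold were of mixed function and mixed position. The highest, at 10.3, had its centre 474 bp inside Ddx54, which encodes a DEAD-box RNA helicase (chr5:120613023-120613403), and did not reach the Rita1 start. The next, at 10.04, covered the start of Dnaaf5, an assembly factor of ciliary and flagellar dynein arms, opposite Prkar1b, a regulatory subunit of protein kinase A (chr5:139150135-139150494). At 9.84 followed Arl2/Batf2, a small GTPase of tubulin folding and a bZIP factor, where the starts are 744 bp apart and the centre lay between them (chr19:6140631-6141218).

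A further 6 of the 10 lay between 8.18 and 8.65. Hmgb1/Uspl1, with Hmgb1 encoding an abundant chromatin protein, had 8.65 (chr5:149184099-149184689), and Mtx1/Thbs3, of mitochondrial import and the matrix, had 8.55 with only the Mtx1 start covered (chr3:89213881-89214538). Catsper2/Pdia3 joins a subunit of the sperm calcium channel to an ER disulfide isomerase, and its region of 879 bp was centred 12.5 bp from the midpoint at a fold of 8.44 (chr2:121413411-121414289). The region of 1700037C18Rik/Cluap1, the latter a gene of intraflagellar transport, had 8.43 and its centre 391 bp inside Cluap1 (chr16:3909051-3909333). Zcrb1/Pphln1 had 8.21 (chr15:93398115-93398661) and Armh1/Tmem53 had 8.18 (chr4:117251846-117252284), both with both starts covered. Of the 10 centres, 6 lay in the plus-strand gene, 2 in the minus-strand gene and 2 between the starts.

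Members can be wide without being high. The widest, 2213 bp at Zbtb25/Zbtb1, a pair of BTB zinc finger genes, had a fold of 3.94 and its centre between starts 664 bp apart (chr12:76369049-76371261). The next were 2062 bp at Srgap2/Fam72a (fold 4.52), 2024 bp at Fhod1/Slc9a5 (4.71), 1841 bp at Hnrnpk/Rmi1 (5.89) and 1733 bp at Dcaf6/Mpc2 (5.43), all with both starts covered. Rmi1 encodes a partner of the BLM helicase and Mpc2 a subunit of the mitochondrial pyruvate carrier. The 5 lowest folds were Zfp654/Cggbp1 (2.90), a second region of Zfp597/Naa60 (2.90), Tmem200a/Gm9767 (2.88), Zscan29/Tubgcp4 (2.88) and Lig4/Abhd13 (2.85), the last beside the ligase of non-homologous end joining. Of these 5 regions, those at Tmem200a/Gm9767 and Lig4/Abhd13 rested on a single row.

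**Figure D3:**
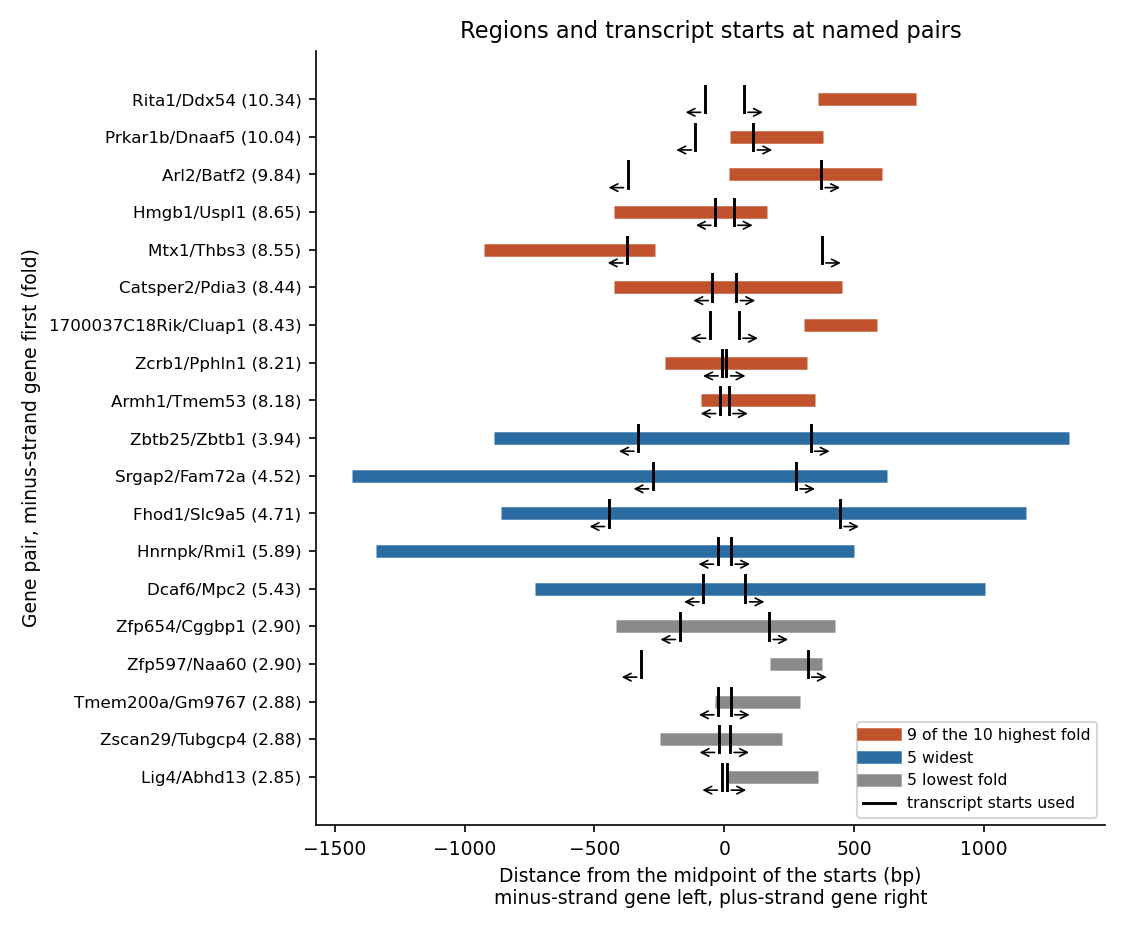
Extent of the regions (bars) with 9 of the 10 highest folds (red), the 5 greatest widths (blue) and the 5 lowest folds (grey), in bp from the midpoint of the starts used, with the minus-strand start and the plus-strand start as ticks and arrows in the direction of transcription. The red bars lie on either side or across the starts, all blue bars cross both starts, and the fold of each region stands beside its pair.

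Pairs with more than 1 region were rare, at 4 of 707 (0.566%, 0.220 to 1.45%). Cdca2/Kctd9 carried a region 497 bp inside Cdca2 (fold 4.40) and another 505 bp inside Kctd9 (fold 4.90), with neither start covered. Bloc1s3/Trappc6a likewise had regions 967 bp inside Bloc1s3 (2.91) and 399 bp inside Trappc6a (3.72). In Zfp597/Naa60 (folds 5.50 and 2.90), the regions belonged to different alternative starts of the same genes. At the edge of the rule, 8 members had a start more than 900 bp from the centre, and 9 further regions would have met a window of 1200 bp.

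To see how often a divergent promoter carried a region, all autosomal head-to-head coding pairs with starts up to 2 kb apart were taken as the denominator. Of 1338 such pairs 707 had a region, which is the background share of 52.8% (50.2 to 55.5%). By gene, 1520 of 2608 genes of such pairs (58.3%, 56.4 to 60.2%) had a region within 1 kb of a start, against 4584 of 18199 other autosomal coding genes, or 25.2% (24.6 to 25.8%), and 29.3% of all 20807. With rows of -log10 q under 5 left out, these fell to 21.3% of pairs and 7.54% of the other genes. In the counts by gene, 1 region can count for both genes of a pair, which can raise the share of pair genes. The other genes also hold most of the 1457 chemoreceptor genes, and 1 of all 1457 had a region. The pair share was 59.5% at starts up to 100 bp apart, 62.9% up to 200 bp, 61.7% up to 300 bp, 56.3% up to 500 bp, 37.8% up to 1000 bp and 2.19% up to 2000 bp. The rule itself lowers the last figures, since a centre must lie within 1 kb of both starts, and at the 137 pairs 1001 to 2000 bp apart 45.3% (37.2 to 53.6%) had a region at either gene.

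**Figure D4:**
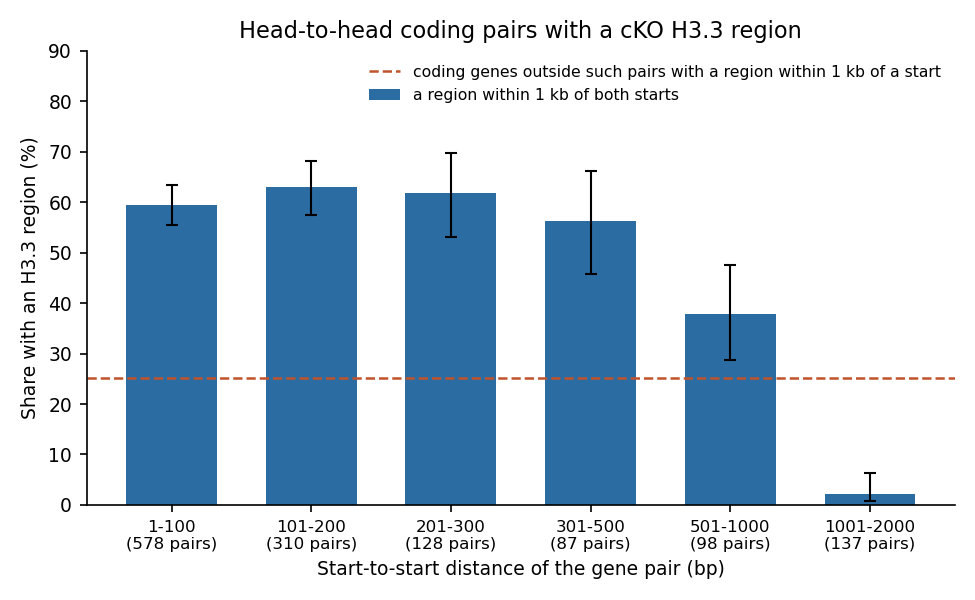
Share of autosomal head-to-head coding pairs with a cKO H3.3 region within 1 kb of both starts, by start-to-start distance in bp, with 95% Wilson intervals and the number of pairs under each bar. The dashed line marks the 25.2% of coding genes outside such pairs with a region within 1 kb of a start, and the bars lie between 59.5% and 62.9% up to 300 bp and fall beyond 500 bp.

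CpG content moved with coverage. The CpG observed over expected ratio, which is near 1 where CpG is not depleted, was taken over 300 bp around the midpoint of each pair, and its median was 0.870 (0.855 to 0.886) at 707 pairs with a region and 0.673 (0.635 to 0.712) at 631 without. GC content was 64.3% and 56.0%. Among pairs up to 300 bp apart the gap narrowed to 0.888 against 0.808. In strata of this ratio at the outermost 5′ start of each gene, chosen after seeing the data, genes of pairs had a region more often than other genes in every stratum. Here too, 1 region can count for both genes of a pair. The shares were 33.9% against 7.06% below 0.6, 58.1% against 34.3% from 0.6 to 0.8, and 68.4% against 52.9% from 0.8 upwards. The part of CpG content in the coverage of pairs was not tested beyond these strata.

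At their own centres, members resembled other promoter regions. The 300 bp around a member's centre had a median GC content of 68.3% and a CpG ratio of 0.881 (0.865 to 0.892), and 96.8% had a ratio of at least 0.6. Regions upstream and downstream of single starts had GC contents of 70.0% and 70.7%, and ratios of 0.880 and 0.885. Regions without a coding start had a lower ratio, 0.661.

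Motif letters were compared in windows of 300 bp. ETS letters (CCGGAAG) stood in 35.9% (32.2 to 39.8%) of the 618 midpoints of pairs up to 300 bp apart with a region, in 23.4% (19.5 to 27.8%) of the 398 without and in 10.1% of the starts of 18199 genes outside pairs. GGGCGG, the letters of SP and KLF factors, stood in 72.3%, 58.5% and 44.3%, and CGCANGCGC of NRF1 in 22.8%, 16.3% and 7.29%. TATAAA ran the other way, at 2.1%, 7.54% and 11.5%, as did ACTACAANT of ZNF143 between the pairs, at 2.91% and 5.78%. Between pairs with and without a region, intervals overlapped for NRF1 (19.7 to 26.3% and 13.0 to 20.3%) and for ZNF143 (1.85 to 4.56% and 3.88 to 8.52%). CCAAT of NF-Y differed little, at 40.8%, 37.9% and 35.9%. CpG-rich windows hold CpG-containing letters more often, and the motifs were not adjusted for this. A match is a match of letters and no evidence of binding.

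**Figure D5:**
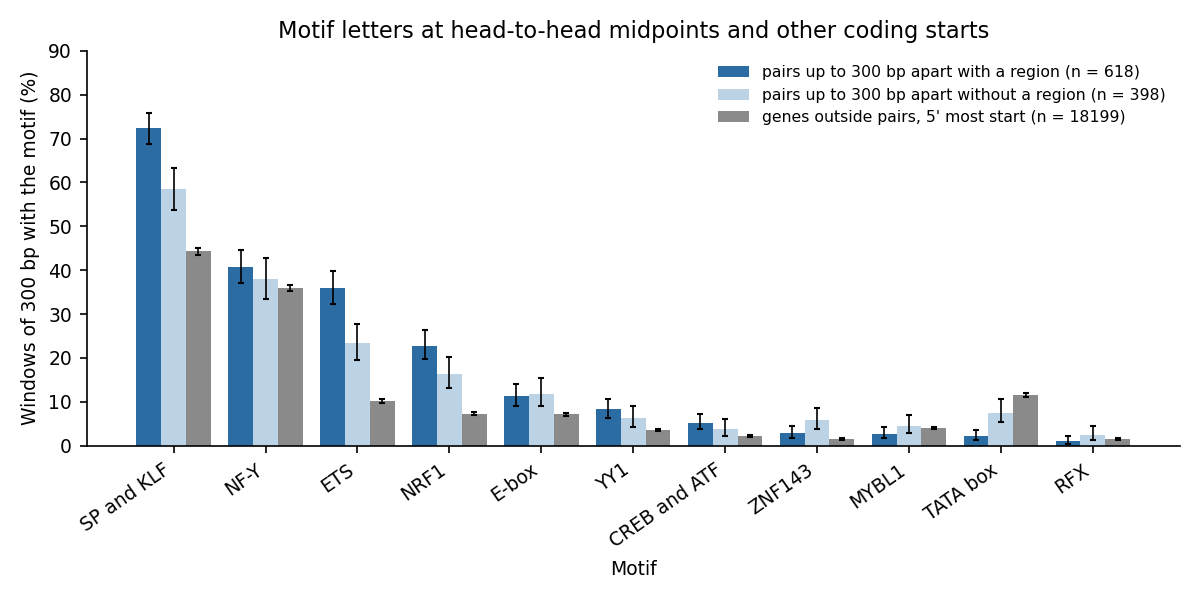
Share of 300-bp windows with each motif's letters on either strand, for 618 head-to-head pairs up to 300 bp apart with a cKO H3.3 region, 398 such pairs without one and 18199 genes outside pairs, with 95% Wilson intervals. SP and KLF, ETS and NRF1 letters are most frequent in pairs with a region and the TATA box letters least, whereas the NF-Y bars lie close together.

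In windows around the region centres themselves the contrasts of ETS, SP and KLF and NRF1 letters were smaller, but that of NF-Y was not. CCAAT stood in 27.5% of members (24.3 to 31.0%) and 29.2% of regions upstream of a single start. It stood in 15.8% of those downstream (14.6 to 17.1%) and 20.5% of all autosomal regions. ETS letters stood in 20.6% of members (17.8 to 23.8%), 14.8% of regions upstream of a single start (13.0 to 16.7%), 14.0% of those downstream and 15.9% of all autosomal regions. Regions without a coding start held them as often as members, at 21.3% (18.5 to 24.4%). CGCANGCGC was found in 17.4% of members (14.8 to 20.4%), 14.1% of regions upstream of a single start (12.4 to 16.0%) and 10.5% of those downstream. The intervals of members and upstream regions overlapped. GGGCGG was found in 73.2% of members, below the 79.2% (77.0 to 81.2%) upstream of single starts. YY1 letters (ATGGCGGC) stood in 8.78%, 6.44% and 9.20%, with overlapping intervals, TGACGTCA of CREB and ATF in 2.78% of members and CACGTG, an E-box, in 8.64%. GGCAGTT, the core that MYBL1, a meiotic activator, binds, stood in 1.32% of members (0.695 to 2.49%) and 2.70% of regions upstream of single starts (1.98 to 3.67%), with overlapping intervals. GTTNCCATG of RFX factors stood in 1.02% of members.

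The members named 1383 genes, 6.65% of all autosomal coding genes, in 707 gene pairs counted by gene identifier. By gene symbol, 24 regions met the rule for 2 pairs. Which gene groups they fell in was read against that share and against how many of a group's genes lie in such pairs at all. Genes of pairs are 12.5% of autosomal coding genes, so the members of each group are given beside the number of its genes in such pairs. A region at a promoter is occupancy and not expression. The fold of a member is listed for both genes of its pair, so it need not lie at the named gene's own start.

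DNA repair and replication had the highest share of the lists. Of 56 genes, 26 lie in head-to-head pairs, 20 of these 26 (76.9%) had a region near a start, and 19 (33.9%, 22.9 to 47.0%) were genes of members. Among the higher folds was 6.10 at Pms2, a gene of mismatch repair, opposite Aimp2. That region had its centre 188 bp inside Aimp2 and covered the Aimp2 start but not that of Pms2. The lowest folds were at Xpc (2.91), a sensor of nucleotide excision repair, and Lig4 (2.85), whose region covered only the Abhd13 start. Members also lay at Atm/Npat (3.99), where the damage kinase faces a histone gene activator and the region covered 1 start, and at Mcm4/Prkdc (3.31), a subunit of the replicative helicase opposite the catalytic subunit of DNA-PK. Rad51c, opposite the germ cell gene Tex14, had its region 551 bp inside Rad51c (4.44).

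Groups of mitochondrial function also lay above the share of all genes. Of 78 genes of the mitochondrial ribosome 31 lie in pairs, 19 of these had a region and 17 (21.8%, 14.1 to 32.2%) were members, with the highest folds at Mrpl37 (6.43), Mrps18b (5.96) and Mrpl41 (5.84). Of 104 genes of the respiratory chain 37 lie in pairs, 21 had a region and 19 (18.3%, 12.0 to 26.8%) were members, led by Sdhaf2 (7.35), an assembly factor of succinate dehydrogenase, Atp5c1 (6.56) and Sdha (5.19). The pair genes of these groups with a region, 61.3% and 56.8%, were near the 58.3% of all pair genes. Aminoacyl-tRNA synthetases had 9 members of 35 genes (25.7%, 14.2 to 42.1%), with 10 of 11 pair genes carrying a region, and their highest folds were at Wars (5.80), Ears2 (5.37) and Yars (4.75). The region listed for Yars had its centre 488 bp inside the opposite gene, S100pbp, and did not reach the Yars start. Mrps12/Sars2, a mitochondrial ribosomal protein and the mitochondrial seryl-tRNA synthetase, was among the weakest at 2.91.

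Chaperones, proteasome and cytosolic ribosome had regions at 17 of 28, 7 of 11 and 9 of 17 pair genes. Of 83 chaperone genes 15 were members (18.1%, 11.3 to 27.7%), with the highest folds at Hspb11 (7.32), which is on the list by its symbol and acts in intraflagellar transport, Dnajb11 (6.46) and Hsp90b1 (5.83). Hspd1/Hspe1, the mitochondrial chaperonin and its co-chaperonin, shared a region of 318 bp that covered both starts at a fold of 4.47 (chr1:55088220-55088537). Of 49 proteasome genes 5 were members (10.2%, 4.44 to 21.8%), an interval that includes the 6.65% of all genes, with Psma4 at 7.82, Psmd13 at 5.17 and Psmc2 at 4.91. The region listed for Psmc2 lay inside the opposite gene, Dnajc2, and covered neither start. Cytosolic ribosomal proteins had 8 members of 81 genes (9.88%, 5.09 to 18.3%), which also includes that share, with Rpl7a (6.10), Rpl12 (5.84) and Rpl35 (5.35) highest.

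Histone cluster genes often lie in pairs but had few regions there. Although 38 of 67 lie in head-to-head pairs, 12 of the 38 (31.6%) had a region, below the 58.3% of all pair genes. Of the 67, 10 were members (14.9%, 8.31 to 25.3%), in 5 pairs, a share above the 6.65% of all genes. Folds were 4.19 at Hist1h2ac/Hist1h2bc, 3.82 at Hist1h2ba/Hist1h2aa, a pair of testis-specific histones, and 3.34, 3.21 and 2.90 at the other 3. All 5 lay under the members' median of 4.36. Copies of these genes are near identical in places, and how reads with several matches were handled is not given in the sources used here.

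The remaining lists had lower shares of members. Of 385 zinc finger (Zfp) genes 36 lie in pairs, 20 of these (55.6%) had a region and 15 (3.90%, 2.38 to 6.33%) were members, led by Zfp668/Zfp646, which face each other across starts 16 bp apart and shared a region of fold 6.72, then Zfp511 (5.74). Of 1457 chemoreceptor genes 3 lie in pairs and 1 was a member, Vmn1r4, at a fold of 4.18, whose region covered 1 start and had its centre in the opposite gene, Nt5c3. Among 53 genes of meiosis and spermatogenesis, 28 had a region near a start (52.8%), beside 29.3% of all autosomal coding genes. Only 5 lie in pairs, and the members were Stag3 (5.48), a meiotic cohesin subunit, and Ccnb1ip1 (4.48), a crossover factor, opposite Parp2. Their share, 3.77% (1.04 to 12.8%), has an interval that includes the 6.65% of all genes.

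Of 18 divergent pairs known as such and listed by name, 13 had a region, beside 52.8% of all such pairs and 59.5% of those with starts up to 100 bp apart. Beside those given above they included Gart/Son (4.52), Ppat/Paics (4.39) and Hadha/Hadhb (3.99), of purine synthesis and of the mitochondrial trifunctional protein, Recql4/Lrrc14 (4.46), Sirt3/Psmd13 (5.17), Emc8/Cox4i1 (3.66) and Hars/Hars2 (3.11). The 5 without a region were Brca1/Nbr1, Surf1/Surf2, Col4a1/Col4a2, Tap1/Psmb9 and Fen1/Tmem258. Absence from the list says that no peak was kept once the replicate calls were intersected, so single libraries may still have had one. The depth of the libraries is unknown.

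Coverage of pairs varied among the autosomes, from 41.9% of 124 pairs on chromosome 11 to 70.1% of 87 on chromosome 5. The X chromosome is normally silenced in pachytene spermatocytes, and the paper reports that sex-linked genes fail to be repressed without ARID1A. On X, 8 of 38 head-to-head coding pairs had a cKO region (21.1%, 11.1 to 36.3%), below the 52.8% of autosomal pairs. X genes outside such pairs were not counted, so the lower share is not shown to concern pairs. The folds of the 8 X regions ran from 2.88 to 4.36, with Idh3g/Ssr4 highest. Of the 8 X regions, 3 had the fold of 2.906 that was the commonest in the list.

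The WT list held 228 regions, of which 4 were autosomal, and none lay at a head-to-head coding pair. With 4 autosomal WT regions, at most a few overlaps were possible, and no member overlapped one. From average signal, the paper reports H3.3 above IgG at starts of ARID1A-regulated autosomal genes, which appeared stronger in cKO than in WT. Those genes were not set beside the members here. The Wilson limit for 0 of 683 is 0.559%, but it assumes that each member could have overlapped, so it bounds no share here. With 1 combined list per genotype, 2 against 3 libraries and unknown depth, a difference in H3.3 at divergent promoters and a difference in peak detection between the lists cannot be told apart.

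Markers of the cell types that the fraction could hold were looked up in the same cKO list, although a peak at a promoter does not measure expression. Of all autosomal coding genes, 29.3% had a region within 1 kb of a start. Of 8 markers of pachytene spermatocytes, 5 had a region within 1 kb of a start (Sycp3, Hspa2, Piwil1, Mybl1 and Ccna1) and Sycp1, Ldhc and Pgk2 did not. None of 5 Sertoli and 4 Leydig markers had one, and 1 of 4 spermatogonial markers, Zbtb16, did. Lists of 4 to 8 genes are too short to be set against that share. None of these genes lies in a head-to-head coding pair, so they do not bear on the members directly.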

How the data were processed

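The authors trimmed reads (Trim Galore), aligned them to mm10 (Bowtie2), removed duplicates (Picard) and called broad peaks with MACS2 against IgG. Replicate calls were then intersected into 1 deposited list per genotype. The deposited lists give, per peak, a fold (the ratio of H3.3 to control pileup) and -log10 p-values and q-values, of which fold and -log10 q were used. Sequencing depth is not given in the sources used here, and 0 per-sample columns were left unmatched.

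Rows overlapping by 1 bp or more were merged, with the highest fold and -log10 q kept. Starts were all transcripts of protein-coding genes in GENCODE M21. Coordinates are 1-based on mm10. Shares have 95% Wilson intervals and medians have 95% order-statistic intervals, which reflect counting error alone and assume independent regions. No test was made, since regions of 1 list are not replicates. The region finder was tested on simulated data.

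Named members are the 10 of highest fold, the 5 widest, the 5 of lowest fold, those at listed divergent pairs, pairs with 2 regions, and the 3 of highest fold in each gene list. A few members under these rules are not reported here. Members and lists were chosen with earlier results of these data known. The 12 ARID1A libraries were not analysed here. Python 3.11.15, numpy 2.4.6, scipy 1.17.1, pandas 2.3.3, pysam 0.24.0, matplotlib 3.10.9 and samtools 1.23.1 were used.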

Additional observations from a re-analysis of the deposited data

How the results depend on the processing

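No paired analysis was possible because replicates stand merged in 1 list per genotype, which also leaves no replicate to drop in turn. Of 51 alternative values for 10 results, 37 stayed within the interval of the reported value (counts within 1.5 times) and none changed sign. The cause of the others was not tested unless the setting itself shows it. With -log10 q of at least 3 the median fold rose to 4.74 and the share of pairs with a region fell to 40.7% (genes outside pairs 17.3%), and with at least 5 these were 275 members, 21.3% of pairs and 7.54% of genes outside pairs. Left unmerged, 1350 rows met the rule. The share of centres between the starts was 28.3% with APPRIS principal transcripts and 57.5% with the outermost starts. Median start-to-start distance was 116 bp with protein-coding transcripts, 150 bp with APPRIS principal transcripts and 413 bp with the outermost starts. With pairs limited to 1 kb, 58.6% had a region. Over the whole region the median CpG ratio was 0.862. Curated RefSeq transcripts gave 562 members. The excess of fold over single starts ranged from 0.247 to 0.327 in its 4 alternatives, against 0.348, and that of width from 42.5 to 80.5 bp, against 62 bp. Without depth, a promoter absent from the list cannot be read as free of H3.3.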
